A study of Mus musculus with 10 samples.

Results

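The heme synthesis genes were followed through 10 expression arrays of mouse osteoblasts, the cells that build bone. The set holds 9 named genes (Alad, Alas1, Alas2, Uros, Urod, Cpox, Ppox, Fech and Slc25a38), and every probe set that the platform annotation gives to one of these symbols alone was taken, 20 of 45101 in all. The set was built around Alad because Alad had already been seen to be lower in both mutant genotypes, so its difference from wild type chose the set and is given as a description with no test. The other 8 genes entered as steps of the same pathway.

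The 3 genotypes were profiled in mice aged 2 to 3 days whose background strain is labelled C5BL6. They were osteoblast-specific constitutively expressed beta-catenin (3 samples, called β-catenin active), osteoblast-specific deletion of FoxO1 (3 samples, called FoxO1 deleted) and wild type (4 samples). The sources used here name neither the Cre or promoter that gave osteoblast specificity nor the allele, and they do not say whether a sample was 1 animal or a pool, so the spread behind each p-value is that between these samples and may be technical. Sex is recorded as undetermined.

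Heme is the iron-containing ring that hemoglobin, cytochromes and many oxidases need. Its synthesis starts in the mitochondrion, where glycine and succinyl-CoA are joined to 5-aminolevulinate, continues in the cytosol from 5-aminolevulinate dehydratase (Alad) to uroporphyrinogen decarboxylase (Urod), and returns to the mitochondrion for the last steps, ending with the insertion of iron by ferrochelatase (Fech). Red-cell precursors run the pathway at a very high rate through their own first enzyme, Alas2, whereas other cells use Alas1 for their cytochromes. Neonatal bone encloses blood-forming marrow, so if marrow cells remained among the osteoblasts, a heme gene could come from either kind of cell. In samples measured as a whole, fewer cells of a type and less RNA per cell cannot be told apart.

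Values are log2 signals of the Affymetrix MAS5 algorithm, on which a difference of 1 is a doubling, and the level of one probe set says nothing beside that of another. A gene was represented by the probe set with the highest mean among those kept, a probe set being kept if its third-highest value lay above the table's median of 7.15. All 9 genes were kept, with 14 of their 20 probe sets, and the representative probe sets lay above that median in every array, the lowest single value being 7.67 for Cpox. Array medians ran from 7.02 to 7.22. Osteoblast markers were high in every group, with mean signals of 15.19 with active β-catenin, 15.18 with FoxO1 deleted and 15.11 in wild type for Col1a1 (type I collagen), and of 11.24, 11.56 and 11.45 for the osteoblast transcription factor Sp7 in the same order of groups. Wild type 1 and 2 correlated at 0.990 over genes and wild type 3 and 4 at 0.989, against 0.971 to 0.973 between these pairs, so wild type may hold fewer than 4 independent samples. Xist, the RNA of the inactive X chromosome, was high (14.05 to 14.43) in FoxO1 deleted 2 and 3 and in wild type 3 and 4, and did not pass 8.96 in the other 6 arrays. As a gauge of RNA integrity, the 3' probe set of Actb exceeded its 5' one by 0.85 to 0.88 with active β-catenin and 0.80 to 0.99 in FoxO1 deleted arrays, against 0.60 to 0.77 in wild type, and its part in the results was not tested.

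Alad encodes the cytosolic enzyme that condenses 2 molecules of 5-aminolevulinate into porphobilinogen. Its signal was 9.62, 9.78 and 9.79 in the 3 arrays with active β-catenin, 9.46, 9.33 and 9.45 in the 3 with FoxO1 deleted, and 10.43, 10.48, 10.15 and 10.27 in the 4 wild-type arrays. Every mutant array lay below every wild-type array, and every FoxO1 deleted array lay below every β-catenin active array. The means were 9.73 ± 0.10 (SD, n = 3) with active β-catenin and 9.41 ± 0.07 (SD, n = 3) in FoxO1 deleted arrays, against 10.33 ± 0.15 (SD, n = 4) in wild type. The log2 differences from wild type were -0.60 ± 0.10 (SE) with active β-catenin and -0.92 ± 0.10 (SE) in FoxO1 deleted arrays, or 0.659 and 0.529 times the wild-type signal. Both comparisons share the wild-type arrays. Of 11357 genes tested, 165 had a lower difference than Alad in β-catenin active and 64 in FoxO1 deleted arrays. For comparison, 0.784% of genes passed the test in either direction in β-catenin active and 0.0264% in FoxO1 deleted arrays, the test being limma with a Benjamini-Hochberg adjusted p under 0.05.

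The one contrast that played no part in choosing Alad sets the mutants against each other. Alad was higher with active β-catenin than with FoxO1 deleted by 0.32 ± 0.11 (SE) on the log2 scale, and the groups did not overlap, as was so in this direction for 5.39% of all genes. The difference did not pass limma's test over all genes (adjusted p = 0.418), so it is not shown that the mutants differ in Alad. A second Alad probe set lay mostly under the table's median, with signals of 5.68, 3.95 and 6.17 with active β-catenin, 6.19, 6.15 and 5.81 in FoxO1 deleted arrays, and 5.94, 4.73, 6.02 and 6.04 in wild type. Its groups overlapped, and it was not tested. The Alad result therefore rests on 1 probe set.

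**Figure D1:**
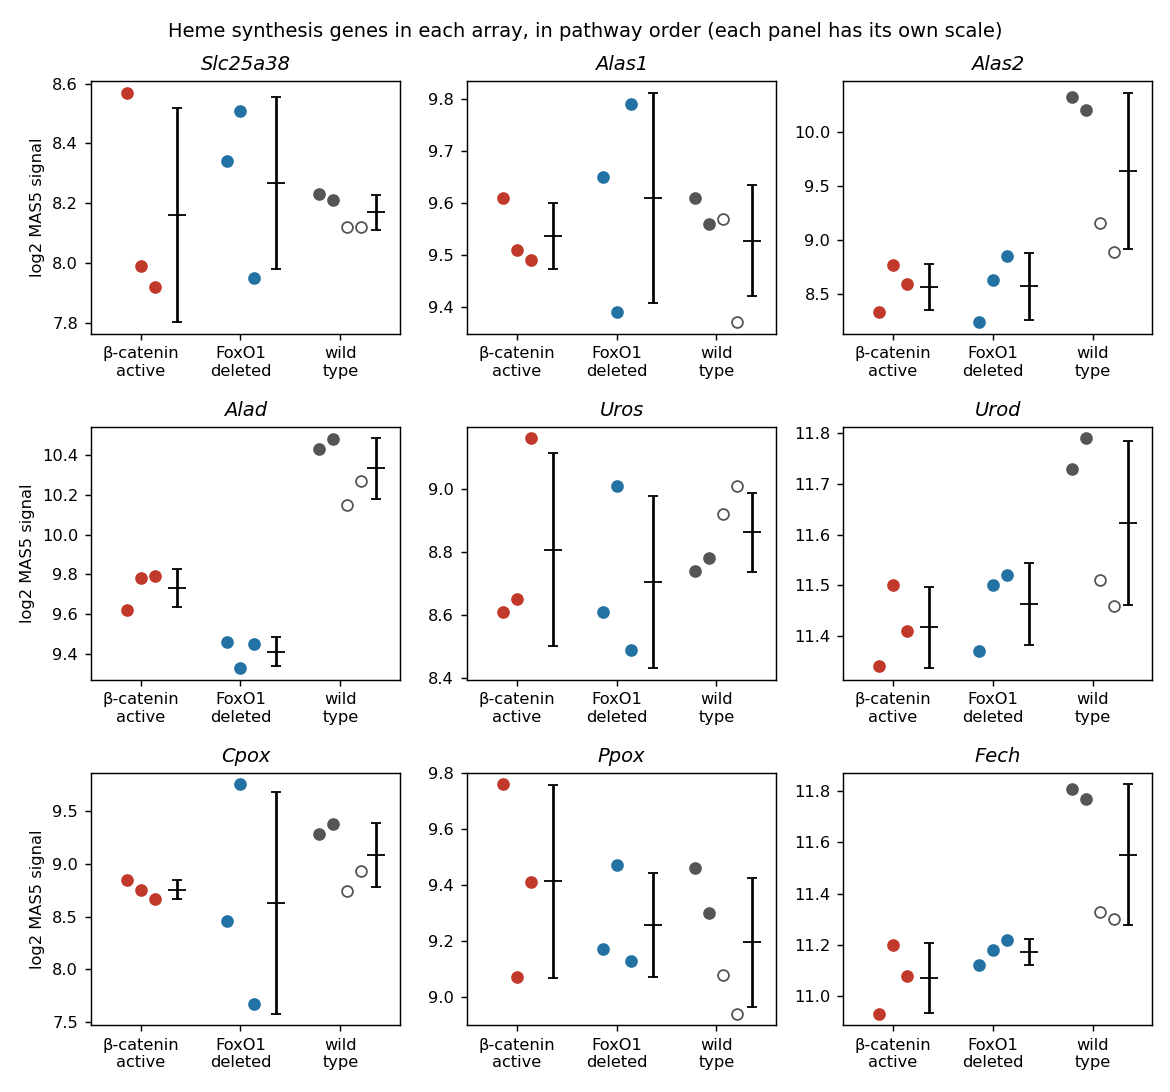
Log2 MAS5 signal of each heme synthesis gene by genotype, 1 point per array with the mean and SD beside it (n = 3, 3 and 4), open wild-type points being wild type 3 and 4. Each panel has its own scale. Alad, Alas2 and Fech lie lower in every mutant array than in every wild-type array. In these panels the open points lie closer to the mutants than the filled ones do, with the smallest gap between the pairs for Alad.

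The pathway's entry has 3 members. Slc25a38 carries glycine into the mitochondrion. Its signal was 8.57, 7.99 and 7.92 with active β-catenin, 8.34, 8.51 and 7.95 in FoxO1 deleted arrays, and 8.23, 8.21, 8.12 and 8.12 in wild type. The wild-type values fell inside the range of both mutants, and the differences from wild type were -0.01 ± 0.18 (SE, adjusted p = 0.992 in limma) with active β-catenin and 0.10 ± 0.18 (SE, adjusted p = 0.914 in limma) in FoxO1 deleted arrays. Alas1, the 5-aminolevulinate synthase of cells in general, had signals of 9.61, 9.51 and 9.49 with active β-catenin, 9.65, 9.39 and 9.79 in FoxO1 deleted arrays, and 9.61, 9.56, 9.57 and 9.37 in wild type. Its groups overlapped throughout, with differences of 0.01 ± 0.11 (SE, adjusted p = 0.987 in limma) and 0.08 ± 0.11 (SE, adjusted p = 0.877 in limma) in the same order of mutants. The second Alas1 probe set, whose name marks it as open to cross-hybridisation, differed by 0.11 (adjusted p = 0.933 over all kept probe sets in limma) and 0.38 (adjusted p = 0.767 in limma).

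Alas2, the X-linked synthase of red-cell precursors, had the lowest differences of the 9 genes. Its signal was 8.34, 8.77 and 8.59 with active β-catenin, 8.24, 8.63 and 8.85 in FoxO1 deleted arrays, and 10.32, 10.20, 9.16 and 8.89 in wild type. All mutant arrays lay below all wild-type arrays, but wild type 4 exceeded FoxO1 deleted 3 by little, while wild type 1 and 2 stood far above the rest. The differences were -1.08 ± 0.32 (SE, adjusted p = 0.171 in limma) with active β-catenin and -1.07 ± 0.32 (SE, adjusted p = 0.488 in limma) in FoxO1 deleted arrays, or 0.474 and 0.477 times wild type. Neither passed. Alas2 thus differed from wild type by more than Alad did, with an SE more than 3 times as large. Between the mutants Alas2 differed by -0.01 ± 0.34 (SE, adjusted p = 0.998 in limma).

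The steps after Alad were less uniform. Uros closes the ring to uroporphyrinogen III. Its signal was 8.61, 8.65 and 9.16 with active β-catenin, 8.61, 9.01 and 8.49 in FoxO1 deleted arrays, and 8.74, 8.78, 8.92 and 9.01 in wild type. These ranges overlapped, and the differences were -0.06 ± 0.17 (SE, adjusted p = 0.939 in limma) and -0.16 ± 0.17 (SE, adjusted p = 0.840 in limma). Urod removes carboxyl groups from that ring in the cytosol. Its signal was 11.34, 11.50 and 11.41 with active β-catenin, 11.37, 11.50 and 11.52 in FoxO1 deleted arrays, and 11.73, 11.79, 11.51 and 11.46 in wild type. The mutants lay below wild type 1 and 2 and level with wild type 3 and 4, with differences of -0.21 ± 0.09 (SE, adjusted p = 0.419 in limma) and -0.16 ± 0.09 (SE, adjusted p = 0.688 in limma). That probe set is also marked as open to cross-hybridisation. The other kept Urod probe set read 8.97, 9.33 and 9.01 with active β-catenin, 9.25, 9.48 and 9.40 in FoxO1 deleted arrays, and 9.57, 9.76, 9.50 and 9.51 in wild type. There neither mutant overlapped wild type, and the differences of -0.48 (adjusted p = 0.110 over all kept probe sets in limma) and -0.21 (adjusted p = 0.682 in limma) did not pass.

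Cpox, the mitochondrial coproporphyrinogen oxidase, was the most variable member among FoxO1 deleted arrays. Its signal was 8.85, 8.75 and 8.67 with active β-catenin, 8.46, 9.76 and 7.67 in FoxO1 deleted arrays, and 9.29, 9.38, 8.74 and 8.93 in wild type. On this probe set FoxO1 deleted 2 held the highest value of all arrays and FoxO1 deleted 3 the lowest. The differences were -0.33 ± 0.37 (SE, adjusted p = 0.804 in limma) and -0.46 ± 0.37 (SE, adjusted p = 0.784 in limma), and the difference of FoxO1 deleted from wild type became 0.025 on leaving out FoxO1 deleted 3, but -1.02 on leaving out FoxO1 deleted 2. The other kept Cpox probe set read 8.69, 8.58 and 8.77 with active β-catenin, 8.73, 9.03 and 8.28 in FoxO1 deleted arrays, and 9.09, 9.06, 8.41 and 8.84 in wild type. There wild type 1 and 2 were highest, just above FoxO1 deleted 2, and both differences were -0.17 (adjusted p = 0.824 and 0.858 over all kept probe sets in limma). Ppox oxidises protoporphyrinogen at the inner mitochondrial membrane. Its signal was 9.76, 9.07 and 9.41 with active β-catenin, 9.17, 9.47 and 9.13 in FoxO1 deleted arrays, and 9.46, 9.30, 9.08 and 8.94 in wild type. It was the only member after Alad with a positive difference in both comparisons, 0.22 ± 0.17 (SE, adjusted p = 0.689 in limma) and 0.06 ± 0.17 (SE, adjusted p = 0.946 in limma), and its groups overlapped.

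Fech, the last enzyme, came closest to the pattern of Alad. Its signal was 10.93, 11.20 and 11.08 with active β-catenin, 11.12, 11.18 and 11.22 in FoxO1 deleted arrays, and 11.81, 11.77, 11.33 and 11.30 in wild type. No mutant array reached the lowest wild-type array. The differences were -0.48 ± 0.13 (SE, adjusted p = 0.149 in limma) and -0.38 ± 0.13 (SE, adjusted p = 0.560 in limma), or 0.716 and 0.769 times wild type, and neither passed. The name of this probe set marks it as shared with other transcripts. The 2 other kept Fech probe sets differed by -0.28 and -0.54 with active β-catenin, and by -0.25 and -0.55 with FoxO1 deleted, all in the same direction (lowest adjusted p = 0.174 over all kept probe sets in limma). The fourth, at a mean of 4.48, was under the table's median and differed by 0.88 and 0.94.

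**Figure D2:**
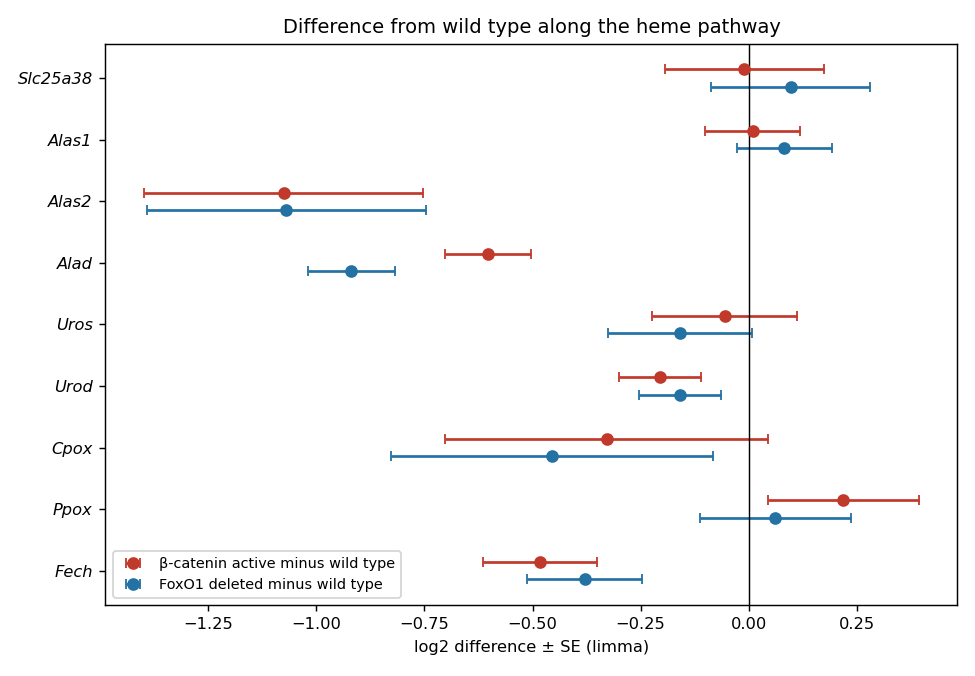
Log2 difference from wild type (horizontal axis, ± SE from limma) of the 9 heme synthesis genes in pathway order, β-catenin active above FoxO1 deleted in each row. Alad stands at -0.60 and -0.92 with short bars, and Alas2 at -1.08 and -1.07 with long bars. Slc25a38, Alas1, Uros, Urod and Ppox lie within 0.22 of 0.

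Alad chose the set and is left out of the counts against wild type. Of the other 8 members, 0 passed limma's test in either comparison with wild type, where 0.784% and 0.0264% of all genes passed. At an unadjusted p under 0.05 there were 2 of 8, Alas2 and Fech, in each comparison, and 12.1% and 7.83% of all genes. The same 2 were the ones whose arrays did not overlap wild type, lower in both mutants, which was so for 6.76% of all genes in β-catenin active and 4.44% in FoxO1 deleted arrays. The median log2 difference of the 8 genes was -0.13 in β-catenin active and -0.16 in FoxO1 deleted arrays. Of the 8, 6 were negative in β-catenin active and 5 in FoxO1 deleted arrays, against 48.8% and 50.1% of all genes. Between the mutants 0 of 9 members passed, where 0.669% of all genes did, and 1 of 9 had an unadjusted p under 0.05 (Alad), where 8.03% of genes did.

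**Figure D3:**
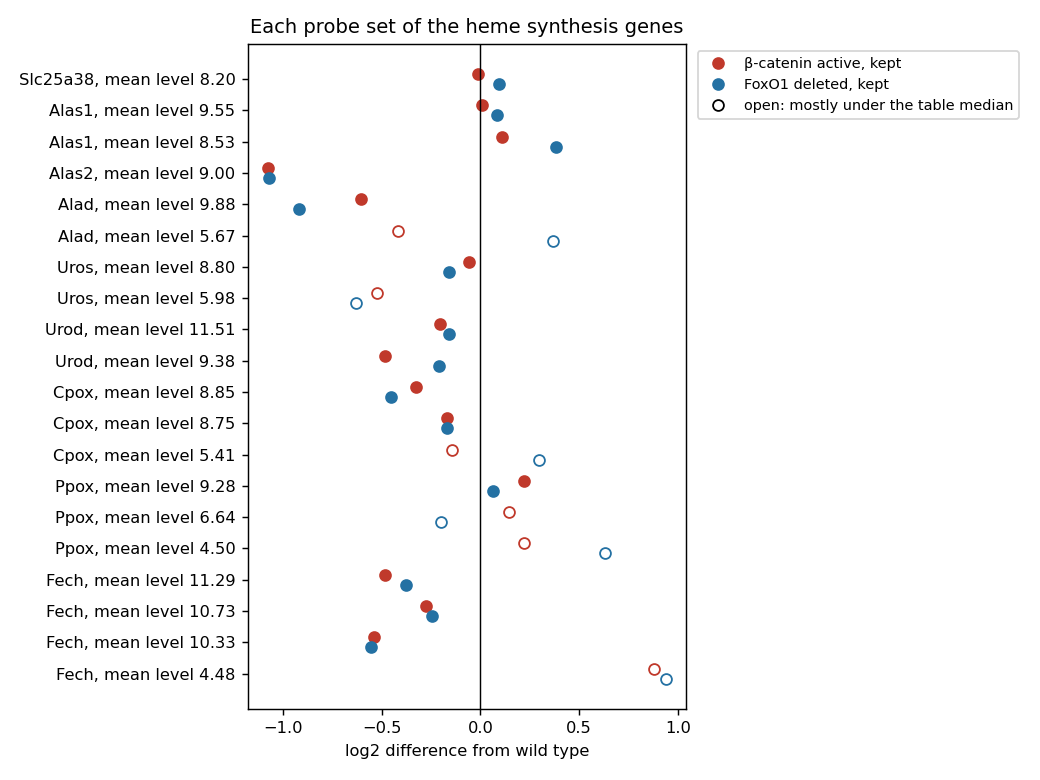
Log2 difference from wild type (horizontal axis) of each of the 20 probe sets of the 9 genes, red for β-catenin active and blue for FoxO1 deleted, open where the probe set lay mostly under the table's median. Kept probe sets of Fech, Urod and Cpox lie left of 0 in both mutants, and the open ones scatter to either side.

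The heme genes differed in how far they followed the 2 pairs of wild-type arrays. Wild type 1 and 2 exceeded wild type 3 and 4 by 1.24 in Alas2, 0.50 in Cpox, 0.48 in Fech, 0.37 in Ppox, 0.28 in Urod and 0.25 in Alad, on the log2 scale. The same difference was 0.12 in Alas1, 0.10 in Slc25a38 and -0.21 in Uros. Thus Alas2 varied by more within wild type than between genotypes. The pairs also differ in Xist signal, and these cannot be told apart. Among the 6 arrays of low Xist signal, Alad differed from wild type 1 and 2 by -0.72 with active β-catenin and by -0.995 in the single FoxO1 deleted array. Among the 4 arrays of high Xist signal, Alad differed by -0.82 between FoxO1 deleted 2 and 3 and wild type 3 and 4. Alas2 differed by -1.69 and -2.02 in the first set of arrays and by -0.28 in the second. Fech did likewise, with -0.72 and -0.67 in the first set and -0.12 in the second. No call is drawn from these subsets, since the first holds 1 FoxO1 deleted array and, as wild type, only the pair in which Alas2 and Fech were highest.

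Red-cell markers were set beside these values. Of 30 listed erythroid genes, 24 had a probe set and 15 were kept. In each comparison with wild type 0 of the 15 passed limma's test, where 0.784% and 0.0264% of all genes did. Between the mutants 0 of the 15 passed, where 0.669% of all genes did. Of the 15, 11 lay under the table's median in at least 1 array, 7 to 8 of them in each array with active β-catenin and 8, 0 and 10 in FoxO1 deleted 1, 2 and 3, against 1, 2, 4 and 5 in wild type 1 to 4. Such genes could be kept through the arrays in which they are high, so no sum or median over the list is given. The list's smallest p-values were those of Rhd, a red-cell membrane protein (differences of -1.23, adjusted p = 0.0779, and -1.22, adjusted p = 0.351, in limma), and Ermap, another (-1.84, adjusted p = 0.0829, and -1.13, adjusted p = 0.590, in limma). Ermap lay under the median in all 3 β-catenin active and 2 of 3 FoxO1 deleted arrays, and Rhd in 2 of 3 of each, against 0 of 4 in wild type for both, so the sizes of these differences rest on weak signals in the mutants. Of the defining markers, Klf1, Rhag and Hemgn lay under the table's median in all 3 β-catenin active and in 2 of 3 FoxO1 deleted arrays. In wild type they did so in 1, 2 and 0 of 4 arrays, in that order. Epor, another defining marker, lay under it in 2 β-catenin active, 1 FoxO1 deleted and 3 wild-type arrays. It differed by -0.05 (adjusted p = 0.962 in limma) and -0.08 (adjusted p = 0.949 in limma). Gata1 was not kept. Slc4a1, the red-cell anion exchanger, lay above the table's median in every array, at 7.90, 9.06 and 7.63 with active β-catenin, 7.69, 9.90 and 7.96 in FoxO1 deleted arrays, and 11.05, 11.05, 9.58 and 9.38 in wild type. Of the 15, 13 differed negatively with active β-catenin and 12 in FoxO1 deleted arrays, the others positively, against 48.8% and 50.1% negative among all genes. A gene kept through wild-type arrays in which it is high will tend to differ negatively, so nothing is drawn from these counts. In the same order of mutants, Hbb-b2 differed by 0.40 (adjusted p = 0.526 in limma) and 0.41 (adjusted p = 0.655 in limma). Its signals were near the table's median, at 7.34 to 7.70 with active β-catenin against 6.78 to 7.20 in wild type. Sptb differed by 0.40 (adjusted p = 0.613 in limma) and 0.14 (adjusted p = 0.911 in limma), and Tfr2 by -0.03 and 0.125.

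Within FoxO1 deleted arrays the red-cell markers were uneven. FoxO1 deleted 2 had an Slc4a1 signal of 9.90, above wild type 3 and 4, while FoxO1 deleted 1 and 3 lay far below. The other defining markers kept, Klf1, Rhag, Hemgn and Epor, also exceeded wild type 3 and 4 in FoxO1 deleted 2. They read 8.15, 7.54, 8.46 and 7.24 there, Rhag and Epor lying near the table's median. Rhd, at 7.48 in FoxO1 deleted 2, lay below every wild-type array. In that array Alad, at 9.33, was at its lowest of the 10 arrays, and Alas2, at 8.63, also lay below all wild-type arrays. Cpox read 9.76 there on one kept probe set and 9.03 on the other. Ank1, a red-cell membrane adaptor that other cells also make, did not follow Slc4a1, at 8.84 in FoxO1 deleted 2, against 9.07, 9.20, 9.39 and 9.60 in wild type. With active β-catenin Slc4a1 lay below every wild-type array, as did Alad, Alas2 and Fech, and the part of red-cell markers in the differences was not tested in either mutant.

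**Figure D4:**
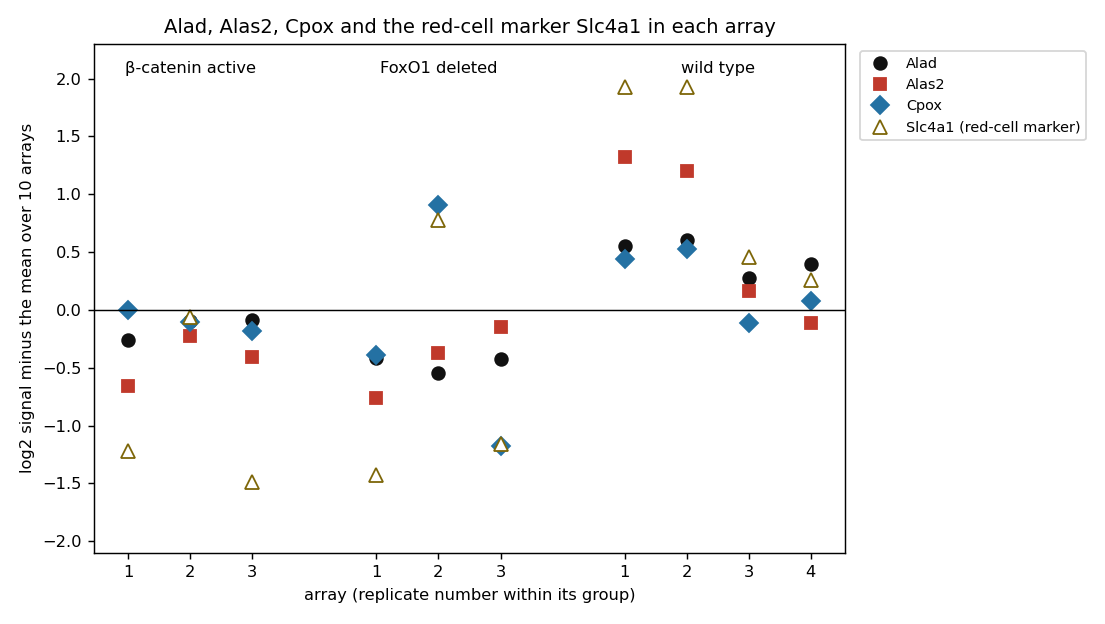
Log2 signal of Alad, Alas2, Cpox (1 probe set each) and the red-cell marker Slc4a1 in each array (vertical axis), as deviations from the mean over the 10 arrays, with arrays grouped by genotype along the horizontal axis. In FoxO1 deleted 2 Slc4a1 and Cpox lie above 0, at signals of 9.90 and 9.76, while Alad and Alas2 lie below 0, at 9.33 and 8.63.

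Promoter sequences are shown for Alad, around which the set was built, and for Alas2 and Cpox, whose signals differed most among arrays. Each is the 250 bases before a transcription start, 5′ to 3′, from RefSeq on GRCm38.p6, with any match to a GATA motif (the letters AGATAA, or with a final G the letters AGATAG, or with a first T the letters TGATAA, or with both the letters TGATAG, on either strand, overlaps allowed) in capitals. GATA factors are known regulators of red-cell genes.
Alad, chr4:62520064-62520313, minus strand: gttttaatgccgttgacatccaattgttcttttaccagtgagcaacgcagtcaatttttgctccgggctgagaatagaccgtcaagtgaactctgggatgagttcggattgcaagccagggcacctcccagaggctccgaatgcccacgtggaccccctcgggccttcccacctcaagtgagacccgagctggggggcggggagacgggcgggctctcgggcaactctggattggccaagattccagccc
Alas2, chrX:150547167-150547416, plus strand: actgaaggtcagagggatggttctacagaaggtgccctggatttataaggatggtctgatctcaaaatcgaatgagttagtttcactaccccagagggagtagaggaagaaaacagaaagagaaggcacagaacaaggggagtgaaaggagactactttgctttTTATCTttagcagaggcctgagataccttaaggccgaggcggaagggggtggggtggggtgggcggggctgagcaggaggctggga
Cpox, chr16:58669958-58670207, plus strand: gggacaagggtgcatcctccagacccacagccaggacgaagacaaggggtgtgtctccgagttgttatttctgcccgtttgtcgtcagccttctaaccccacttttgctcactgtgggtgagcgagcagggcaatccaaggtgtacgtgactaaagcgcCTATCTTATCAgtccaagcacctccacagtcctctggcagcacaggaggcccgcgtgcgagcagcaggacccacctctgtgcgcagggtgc
The Alad window holds no such match. Alas2 has 1 match, beginning 86 bases before the start, and Cpox has 2 that overlap, beginning 91 and 86 bases before it. Of 32851 mouse promoter windows of this length, 26.5% hold at least 1 match. In the 11 windows found for 8 of the members, 3 did, the other being 1 of 2 for Uros. The TCF/LEF motif of β-catenin's partners (CTTTGAA or CTTTGAT) and the FoxO motif (GTAAACA) were found in 0 of the 11 windows, and in 7.48% and 3.17% of all windows. A match is a string of letters and no evidence of binding, and no match says only that these letters are not in the window.

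Partners of the pathway and genes of iron and heme handling gave the wider setting. Over all genes 0.784% passed limma's test against wild type in β-catenin active and 0.0264% in FoxO1 deleted arrays. A count of 0 in lists as short as these therefore does not show that their genes are unchanged. Of 12 listed partners, mostly transporters and mitochondrial cofactors, 10 were tested, and 0 passed limma's test in either comparison with wild type (medians -0.03 and -0.08). Slc25a37, the mitochondrial iron importer mitoferrin of red-cell precursors, read 8.89, 9.13 and 8.80 with active β-catenin, 9.19, 9.48 and 8.49 in FoxO1 deleted arrays, and 10.73, 10.71, 9.37 and 9.54 in wild type. Like Alas2 it was highest in wild type 1 and 2, with differences of -1.15 (adjusted p = 0.174 in limma) and -1.03 (adjusted p = 0.548 in limma). Tmem14c, which helps move protoporphyrinogen into the mitochondrial matrix, differed by -0.23 (adjusted p = 0.264 in limma) and -0.12 (adjusted p = 0.720 in limma). Of 18 genes of iron and heme handling 17 were tested and 0 passed in either comparison (medians 0.01 and -0.12). The smallest p-values there were those of Blvra, a biliverdin reductase (-0.06, adjusted p = 0.904, and -0.37, adjusted p = 0.488, in limma), and Hebp1, a heme-binding protein (-0.06, adjusted p = 0.889, and -0.22, adjusted p = 0.651, in limma). Macrophage markers, which also mark the cells that recycle heme, showed 0 of 9 past the test (medians -0.12 and -0.11). Itgam differed by -0.57 (adjusted p = 0.412 in limma) and -1.01 (adjusted p = 0.379 in limma), and Adgre1 by 0.26 (adjusted p = 0.502 in limma) and 0.35 (adjusted p = 0.618 in limma). Of 10 osteoblast markers 0 passed (medians 0.10 and 0.09). Those with the smallest p-values were the osteocyte genes Phex (0.54, adjusted p = 0.0889, and 0.11, adjusted p = 0.852, in limma) and Dmp1 (0.11, adjusted p = 0.744, and 0.33, adjusted p = 0.494, in limma).

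Likeness to Alad over the 10 arrays was measured as the root mean square difference between centred log2 signals, where 0 is an identical pattern and the median over 11356 other genes was 0.446. The 5 nearest genes were Ccl9, a chemokine (0.177), Dtl, a gene of DNA replication control (0.190), Zfp729a (0.192), Hmgb2, a chromatin protein (0.196), and Slc2a3, a glucose transporter (0.205). Their differences from wild type were -0.30 to -0.54 with active β-catenin and -0.55 to -0.71 in FoxO1 deleted arrays, smaller than those of Alad in both. Likeness over these same arrays chose the genes, so lower signals in the mutants follow from the choice. Fech was the nearest pathway member, at place 28 (0.249), followed by Urod at place 347 (0.325), while Alas1 stood at place 5467 (0.442) and Cpox at place 9524 (0.550). Around Alas2 the median was 0.700 and the nearest genes were Tent5c (0.225), E2f2 (0.262), Septin3 (0.276), Bex4 (0.284) and Isg20 (0.305). Each of these 5 was higher in wild type 1 and 2 than in wild type 3 and 4, by 0.94 to 1.195 on the log2 scale. Likeness to Alas2 over these same arrays chose them, so this split follows from the choice. Alad stood at place 29 (0.415) and Fech at place 35 (0.419) from Alas2.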

How the data were processed

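Total RNA of osteoblasts was labelled as biotin cRNA from 500 ng and measured on Affymetrix arrays, per the labels' protocols. The deposited table holds log2 signal, with MAS5 named in the submitters' processing notes and no version given. The base was read from the values, since the linear signal trimmed by 2% averaged 500.0 in each array. Whether arrays were adjusted further is not stated in the labels. Of 45101 probe sets, 34958 had 1 gene in the platform annotation, 932 several and 9211 none listed. Those kept numbered 20127, and the 11357 genes they give were fitted in R 4.3.3 by limma 3.58.1 over all 10 arrays, each genotype having its own mean, no covariates, eBayes with a trend and 7 residual degrees of freedom. Tests are two-sided and adjusted by Benjamini-Hochberg over all genes. The fit was tested on simulated data. The number of arrays limits the precision.

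The members and gene lists were chosen with earlier results of these data known. Named were the 9 members, of each other list the genes that passed or the 2 with the smallest p in a comparison with wild type, and the 5 genes most like Alad and Alas2. Slc4a1, Klf1, Rhag, Hemgn, Epor and Gata1 were named as defining erythroid markers after their values were seen. Ank1, Hbb-b2, Sptb and Tfr2 were likewise named as others of that list, and Col1a1 and Sp7 as osteoblast markers. Samples were grouped by their titles. Alternatives were 2 other filters, 2 scalings, 2 other ways to represent a gene, the replicate number as a block, fits of only the groups compared, averaging similar wild-type arrays, 16 added before taking log2, Xist signal as a term, leaving out each array, and, added after the data were seen, arrays of low or high Xist signal alone. Same-numbered arrays are not given as paired in the labels.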

Additional observations from a re-analysis of the deposited data

Results flagged for a closer look

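Of the 20 member probe sets, each examined over the 4 wild-type arrays, 1 held an array far from the others, which is what chance gives at about 1 in 20. In the weaker Alad probe set wild type 2 stood at 4.73 and the 3 others between 5.94 and 6.04, a gap of 0.924 of the range. All 4 values lie under the table's median, and this probe set entered no test.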

How the results depend on the processing

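Alad kept a negative difference from wild type in every alternative, from -0.74 to -0.55 with active β-catenin and from -0.99 to -0.82 with FoxO1 deleted. The values farthest from the reported one with active β-catenin were -0.74 with a term for Xist signal and -0.72 in arrays of low Xist signal alone. Of the 8 other members, 0 passed in either comparison with wild type under any of the 21 alternatives run over all arrays or without 1 of them, and between the mutants 0 of 9 passed. Arrays of low or high Xist signal alone are given as differences with no call, the low set holding 1 FoxO1 deleted array and wild type 1 and 2 only. Alas2 and Fech differed in the same direction in each alternative, Alas2 from -1.69 to -0.85 and Fech from -0.72 to -0.40 with active β-catenin, and Alas2 from -2.02 to -0.28 and Fech from -0.67 to -0.12 with FoxO1 deleted. Their lowest values came from arrays of low Xist signal alone.

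The background counts of genes depended more on the setting, and the cause was not tested. With active β-catenin 89 genes passed against wild type, but 15 with the replicate block, 141 in the groups compared alone, 9 with similar wild-type arrays averaged and 10 with the Xist term, and 31 to 130 without 1 array (45 at most when the array left out was of wild type, or was number 1 or 3 of the β-catenin active ones). With FoxO1 deleted 3 genes passed, but 5 under quantile scaling, 0 with the replicate block (635 at an unadjusted p under 0.05 in limma), 1 in the groups compared alone, 0 with similar wild-type arrays averaged (345), and 0 to 7 without 1 array, the 0 being without FoxO1 deleted 1 (1043) or 3 (799), the 7 without FoxO1 deleted 2, and 1 without wild type 1. Between the mutants 76 passed, but 22 with the replicate block, 25 in the groups compared alone, 49 with similar wild-type arrays averaged and 6 with the Xist term, and 29 to 62 without 1 array (45 without β-catenin active 2, 30 without β-catenin active 3 and 29 without FoxO1 deleted 1). Deviations of same-numbered arrays from their group means correlated at -0.29 to 0.29. With so few arrays in a group, this cannot show whether the numbers pair them. Wild type 4 is alone in its block.

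Some small differences changed sign. Against wild type with active β-catenin, Alas1 gave -0.00175 under quantile scaling, -0.0433 with the replicate block, -0.0463 with the Xist term and -0.0483 in low-Xist arrays alone, and -0.0433 to 0.0367 without 1 array. Uros gave 0.0662 with the Xist term, 0.0467 in low-Xist arrays alone, and -0.23 to 0.0425 without 1 array, and Slc25a38 gave -0.215 to 0.11 without 1 array. With FoxO1 deleted, Ppox gave -0.0233 with the replicate block, -0.21 in low-Xist arrays alone and -0.045 to 0.15 without 1 array. Urod gave 0.025 in high-Xist arrays alone. Without 1 array Alas1 gave -0.0075 to 0.19, Cpox -1.02 to 0.025 and Slc25a38 -0.025 to 0.255. Between the mutants, Cpox gave -0.0602 with the Xist term, and in low-Xist arrays alone Alas2 gave 0.33 and Urod 0.0467. Without 1 array the range was -0.18 to 0.0167 for Alas1, -0.17 to 0.13 for Alas2, -0.35 to 0.69 for Cpox, -0.0167 to 0.33 for Ppox, -0.31 to 0.015 for Slc25a38 and -0.0733 to 0.26 for Uros.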
